A study of Mus musculus with 4 samples.

Results

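Entry into and exit from mitosis are run by a small set of cyclins, protein kinases and ubiquitin ligase activators. Of their genes, 10 were examined in hair follicle stem cells of mice with and without conditional knockout of the T-box transcription factor gene Tbx1. The genes are Ccna2, Ccnb1, Ccnb2 and Cdk1 (mitotic cyclins and their kinase), Cdc25c (the phosphatase that switches the kinase on), Plk1, Aurka and Aurkb (Polo and Aurora kinases), and Cdc20 and Ube2c (activator and ubiquitin-conjugating enzyme of the anaphase-promoting complex, APC). They were chosen by name with earlier results of these data known, so the shares given below are descriptions. Every probe set whose only platform gene symbol was one of these names was taken. This gave 13 probe sets for 9 of the 10 genes, out of 20380 probe sets with 1 symbol for 12393 genes. Ccnb1, which encodes cyclin B1, was not analysed here.

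The stem cells were isolated from dorsal skin of females on a CD1/C57BL/6 background, around postnatal day 60, and profiled on 4 Affymetrix arrays. Tbx1 cKO (conditional knockout) mice gave 2 arrays and WT mice gave 2, and the titles number 1 array of each genotype as set 1 and 1 as set 2. All 4 samples were sorted for YFP, integrin α6 and CD34, where integrin α6 with CD34 marks stem cells of the follicle's bulge. The treatment text describes depilation by wax 48 h before harvest for all 4 samples, whereas another label calls both set 1 samples quiescent and both set 2 samples activated, so the sets are named here by number only. No source used here names the Cre driver of the knockout or says that replicate arrays represent different animals. The spread behind the p-values below is therefore that between these 4 samples and may be technical.

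As background, cyclin A and cyclin B proteins bind the kinase CDK1 and drive the cell through late G2 into mitosis, after CDC25 phosphatases remove inhibitory phosphates from CDK1. Polo-like kinase 1 and the Aurora kinases build the spindle and correct its attachments, and the APC, once bound by CDC20, marks the cyclins for destruction so that the cell can divide. The transcripts of these genes accumulate in late S, G2 and mitosis and are held low in resting cells, so that in a mixed population their level follows how many cells are cycling. Bulge stem cells are mostly at rest and divide when a new hair cycle starts. In RNA from a whole sort, fewer cycling cells and less RNA per cycling cell cannot be told apart.

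The array facts that bear on these genes are few. The median log2 intensity was 6.36 to 6.38 on all 4 arrays. Tbx1 read 9.54 and 8.88 on the cKO arrays and 10.53 and 10.37 on the WT arrays on the log2 scale. The difference was -1.24 (SE 0.25), with a limma adjusted p of 0.31 among all probe sets. The cKO signal was 42.4% of WT, so these arrays do not show that Tbx1 RNA was absent. Of 16 bulge markers, 15 lay above the limit for dim genes (log2 5.40) on every array, as did Cd34, Itga6, Krt15 and Krt14. Of 7 immune markers 6, and of 6 fibroblast markers 4, lay below that limit on all 4 arrays. The WT set 2 array stood apart in the nuclear RNA Malat1, at 12.35 against 9.80 to 10.56 on the other arrays. The cKO set 1 array stood apart in the added Dap control, whose signal at the 3′ end exceeded that at the 5′ end by 2.95 on the log2 scale, against 1.74 to 1.82 on the other arrays. It also stood apart in the cells' own transcripts, where the same measure was 1.68 for Actb, against 1.09 to 1.18, and 0.68 for Gapdh, against 0.24 to 0.34.

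Genes of this group are known to share promoter elements, the CCAAT box bound by NF-Y and the cell cycle genes homology region (CHR, TTTGAA) bound by the MuvB complexes that repress them at rest and activate them in G2. Because the members all read lower on the cKO arrays, as described below, the stretch around the start of transcription is shown for the 6 measured members found in the RefSeq promoter table (GRCm38.p6). Each line holds 150 bases before the start and 50 after it, written 5′ to 3′ on the strand of the gene, with both motifs in capitals on whichever strand they were found. The intervals are chr9:70421505-70421704 (Ccnb2, minus strand), chr10:69352863-69353062 (Cdk1, minus), chr7:122159285-122159484 (Plk1, plus), chr2:172370521-172370720 (Aurka, minus), chr4:118437294-118437493 (Cdc20, minus) and chr2:164769779-164769978 (Ube2c, plus). Ccna2, Aurkb and Cdc25c are named only.
Ccnb2: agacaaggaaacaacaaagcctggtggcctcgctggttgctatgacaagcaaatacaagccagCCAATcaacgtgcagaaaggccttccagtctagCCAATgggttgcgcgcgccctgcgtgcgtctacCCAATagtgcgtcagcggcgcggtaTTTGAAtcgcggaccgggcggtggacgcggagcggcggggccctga
Cdk1: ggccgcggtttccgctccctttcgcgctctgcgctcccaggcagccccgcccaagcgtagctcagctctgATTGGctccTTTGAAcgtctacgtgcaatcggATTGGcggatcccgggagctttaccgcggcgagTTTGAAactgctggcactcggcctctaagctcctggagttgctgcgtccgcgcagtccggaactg
Plk1: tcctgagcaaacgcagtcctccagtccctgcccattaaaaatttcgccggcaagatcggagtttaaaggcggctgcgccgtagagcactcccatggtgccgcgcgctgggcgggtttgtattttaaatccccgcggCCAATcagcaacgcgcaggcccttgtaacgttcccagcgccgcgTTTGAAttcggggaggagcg
Aurka: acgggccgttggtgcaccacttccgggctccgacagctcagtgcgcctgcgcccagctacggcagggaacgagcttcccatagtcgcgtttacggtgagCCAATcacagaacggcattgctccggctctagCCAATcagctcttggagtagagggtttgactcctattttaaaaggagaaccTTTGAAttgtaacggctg
Cdc20: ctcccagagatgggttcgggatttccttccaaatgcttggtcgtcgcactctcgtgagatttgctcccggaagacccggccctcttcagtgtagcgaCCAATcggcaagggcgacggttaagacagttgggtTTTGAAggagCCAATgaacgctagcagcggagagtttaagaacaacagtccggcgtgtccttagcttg
Ube2c: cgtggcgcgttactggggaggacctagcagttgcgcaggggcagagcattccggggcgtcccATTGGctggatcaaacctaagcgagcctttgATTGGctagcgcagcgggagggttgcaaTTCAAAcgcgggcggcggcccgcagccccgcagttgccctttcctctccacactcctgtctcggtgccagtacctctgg

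All 6 windows held TTTGAA and all 6 held CCAAT, each searched on both strands, and the motifs did not overlap one another. Of the 32851 promoters in the table, cut to the same window, 11.2% held TTTGAA, 28.6% held CCAAT and 3.30% held both. Among the 8442 promoters of tested genes those shares were 6.65%, 29.4% and 2.35%. The motifs were picked because genes of this group are known to carry them, so the contrast with these shares is not a test. Ccnb2 held 3 CCAAT boxes, which began at positions -87, -54 and -21 counted from the start of transcription at 1, and TTTGAA followed at position 5. Cdc20 held CCAAT at -53 and -8 with TTTGAA between them at -18. Cdk1 and Ube2c carried their 2 CCAAT boxes on the opposite strand (read as ATTGG), and Cdk1 held TTTGAA at both -71 and -15. Plk1 was the one of these 6 windows with a single CCAAT box. In the 6 other lists described below, TTTGAA was held by 2 of 11 promoters of CDK1 regulators, 1 of 7 of Aurora and Polo partners and 1 of 16 of APC subunits. It was held by 3 of 9 promoters of the coactivator and inhibitor list, 3 of 7 of APC substrates and 1 of 17 of G2/M transcription factors. Whether the matches go with the cKO values of these lists was not tested. A match is a description of the letters in the window and not evidence that a factor binds there.

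The comparison of cKO with WT asked whether stem cells of Tbx1 cKO mice carry other amounts of these mitotic transcripts. For all 9 measured genes, and for each of their 13 probe sets, both cKO arrays read lower than both WT arrays, which held for 19.9% of the 8031 genes tested and for 21.4% of 12527 probe sets. The cKO signal was between 62.1% of WT for Ccnb2 and 76.3% for Cdc25c, with a median difference of -0.55 on the log2 scale over the 9 genes against 0.03 over all tested genes. None of the 9 passed limma's test after adjustment over all genes (adjusted p from 0.196 to 0.416), which does not show that their levels were alike. At an adjusted p under 0.05 limma called 7 of 8031 genes (0.0872%). At an unadjusted p under 0.05, limma's test gave 8 of the 9 members as lower in cKO, where it gave 5.79% of all genes tested as lower.

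**Figure D1:**
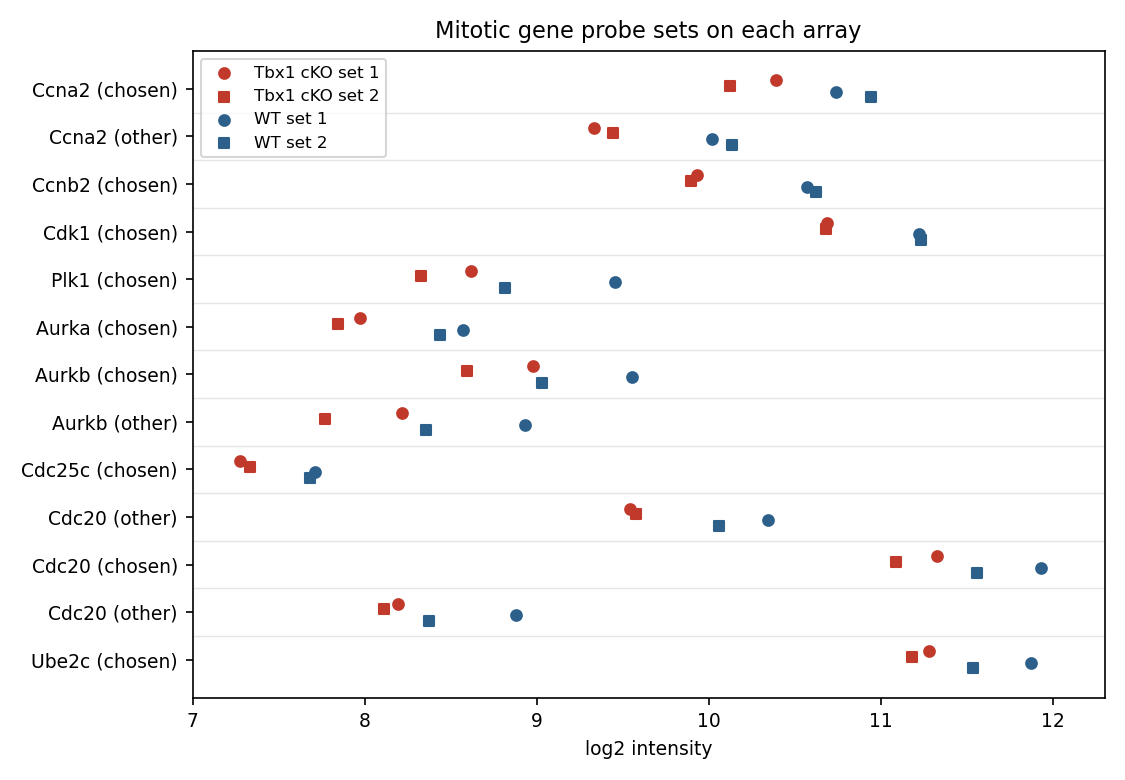
The log2 intensity (horizontal axis) of each of the 13 probe sets of the 9 genes is plotted for the 4 arrays, with Tbx1 cKO in red, WT in blue, set 1 as circles and set 2 as squares. "Chosen" marks the probe set with the highest mean, which stands for its gene. On every row both red points lie left of both blue points.

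Among the cyclins, Ccnb2 encodes cyclin B2, a partner of CDK1 that sits largely at the Golgi. Its probe set read 9.93 and 9.89 on the cKO arrays (set 1 and set 2) and 10.57 and 10.62 on the WT arrays, as log2 intensity. The genotypes were separated by far more than the arrays of one genotype differed. The difference of cKO minus WT was -0.69 (SE 0.15, 95% interval -1.06 to -0.31), the lowest of the 9, with a limma adjusted p of 0.196.

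Cdk1 encodes the kinase itself. It read 10.69 and 10.68 on the cKO arrays and 11.22 and 11.23 on the WT arrays. The arrays of each genotype nearly coincided, with an SD of 0.0050 in cKO and 0.0098 in WT (n = 2 each). The cKO level was 68.5% of WT, a log2 difference of -0.55 (SE 0.15, 95% interval -0.92 to -0.17, limma adjusted p = 0.255), and it was 69.0% within set 1 and 68.0% within set 2.

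Ccna2 encodes cyclin A2, which acts from S phase until it is destroyed early in mitosis. Its brighter probe set read 10.39 and 10.12 on the cKO arrays and 10.74 and 10.94 on the WT arrays. The cKO signal was thus 78.6% of WT within set 1 and 56.5% within set 2, the widest gap between sets of the 9 genes. The second Ccna2 probe set showed no such gap, with differences of -0.68 in set 1 and -0.69 in set 2. Over both sets the brighter one differed by -0.59 (SE 0.18, limma adjusted p = 0.281).

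Cdc25c, the phosphatase gene, had the smallest difference. It read 7.28 and 7.33 on the cKO arrays and 7.71 and 7.68 on the WT arrays. The arrays of the genotypes did not overlap, and the difference was -0.39 (SE 0.15, 95% interval -0.77 to -0.01, limma adjusted p = 0.343).

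Of the mitotic kinases, Plk1 encodes Polo-like kinase 1, which acts from spindle assembly to cytokinesis. It read 8.62 and 8.33 on the cKO arrays and 9.46 and 8.81 on the WT arrays. Both genotypes were lower in set 2, and the WT arrays lay further apart (SD 0.45) than the cKO arrays (SD 0.20). The cKO level was 56.0% of WT within set 1 and 71.5% within set 2. Without the WT set 1 array the Plk1 difference was -0.34, and without the WT set 2 array it was -0.98. The difference of -0.66 over all arrays had the largest error of the 9 genes (SE 0.26, 95% interval -1.29 to -0.03, limma adjusted p = 0.335).

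Aurka encodes Aurora A, the kinase of the spindle poles. It read 7.97 and 7.84 on the cKO arrays and 8.57 and 8.44 on the WT arrays. Its difference was the same in both sets to 2 decimals, at -0.60, and the cKO level was 66.0% of WT (SE 0.16 on the log2 scale, limma adjusted p = 0.241). Aurkb encodes Aurora B, the kinase of the chromosomal passenger complex, which corrects faulty spindle attachments. It read 8.98 and 8.59 on the cKO arrays and 9.55 and 9.03 on the WT arrays. Here the cKO set 1 and WT set 2 arrays nearly met, and the 95% interval of the difference of -0.51 ran from -1.11 to 0.09 (limma adjusted p = 0.416). This was the 1 member whose unadjusted limma p, 0.0815, lay above 0.05. Without the WT set 1 array the difference was -0.25. Its second probe set differed by -0.72 within set 1 and -0.59 within set 2. Both Aurkb probe sets carry suffixes (x and s) that Affymetrix gives where probes can also match other transcripts.

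Cdc20 encodes the protein that brings the APC its substrates in mitosis, and it was measured by 3 probe sets. The brightest read 11.33 and 11.09 on the cKO arrays and 11.93 and 11.56 on the WT arrays. The cKO level by this probe set was 65.8% of WT within set 1 and 72.0% within set 2 (difference -0.54, SE 0.20, limma adjusted p = 0.326). The brightest and the dimmest Cdc20 probe sets carry the x suffix explained above for Aurkb. The probe set without it differed by -0.81 within set 1 and -0.48 within set 2. The dimmest differed by -0.68 within set 1 and -0.26 within set 2. Ube2c encodes the E2 enzyme UBCH10, which places the first ubiquitin on APC substrates. It read 11.28 and 11.18 on the cKO arrays and 11.87 and 11.53 on the WT arrays. The WT arrays were again further apart, and the cKO level was 66.1% of WT within set 1 and 78.2% within set 2 (difference -0.48, SE 0.18, limma adjusted p = 0.335). Without the WT set 1 array the differences of Cdc20 and Ube2c were -0.35 and -0.31.

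Within the sets, all 9 genes were lower in cKO in both, which held for 27.9% of all tested genes. This direction follows from both cKO arrays reading below both WT arrays and is not a second result. The differences ran from -0.84 to -0.35 in set 1, with a median of -0.60, and from -0.82 to -0.35 in set 2, with a median of -0.48. The medians of all tested genes were 0.02 in set 1 and 0.05 in set 2. Ccnb2 and Aurka alone were at least 1.5-fold lower in both sets, 2 of 9 members where 1.64% of all tested genes were. By single probe set all 13 were lower in cKO in both sets, against 31.2% of probe sets, which follows in the same way. Of the 13, 4 were at least 1.5-fold lower in both, against 2.16%. With the set as a block in limma's model, 83 genes were called (1.03%) and again none of the 9 members (adjusted p from 0.114 to 0.298).

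**Figure D2:**
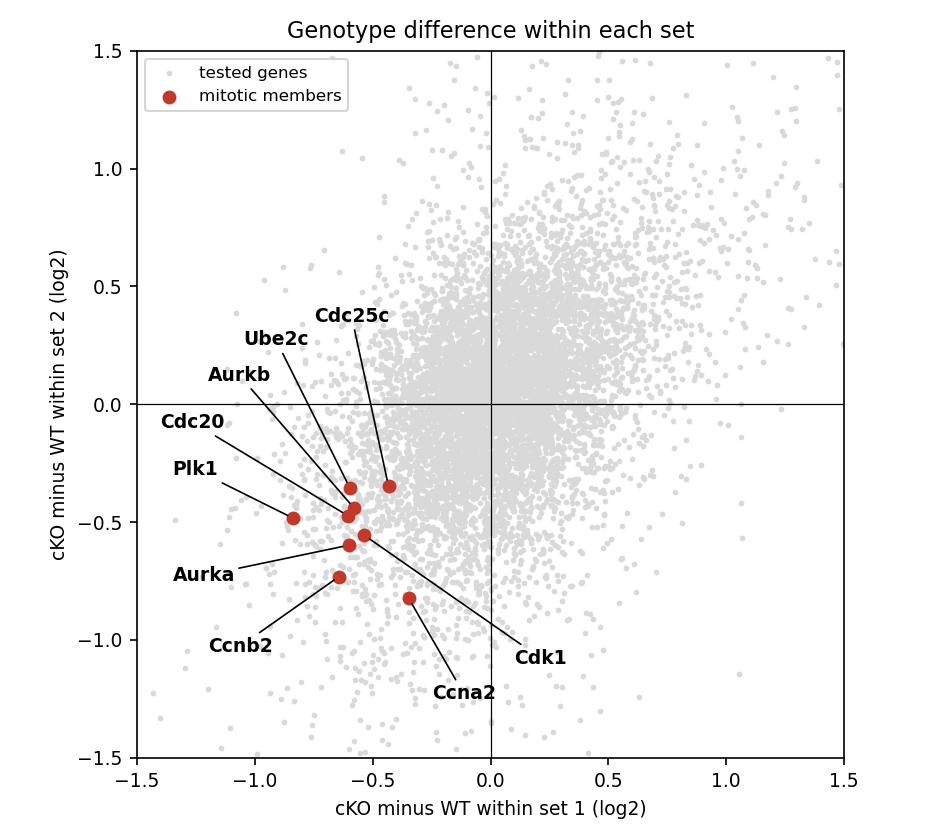
Each point is a gene, placed by its log2 difference of cKO minus WT within set 1 (horizontal) and within set 2 (vertical), with the 9 measured mitotic genes in red over the 8031 tested genes in grey, of which 158 lie outside the axes. All 9 lie in the lower left part of the plot, Plk1 at -0.84 and -0.48 and Ccna2 at -0.35 and -0.82 being the farthest from equal values.

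Leaving out both arrays that stand apart, WT set 2 and cKO set 1, leaves cKO set 2 against WT set 1, a comparison that also differs in set. All 9 genes were lower on the cKO array there, by -1.13 for Plk1 to -0.38 for Cdc25c with a median of -0.69. Their direction was fixed in advance, since both cKO arrays read below both WT arrays for all 9. The sizes include the difference between the sets. Of all tested genes, 50.7% were lower. Endothelial transcripts moved with the genotype as well. All 10 of 10 endothelial markers were lower in cKO in both sets. Among those above the dim filter this held for 5 of 5, against 27.9% of all tested genes. At an adjusted p under 0.05 limma called 4 of those 5, out of the 7 genes called in all. The summed linear intensity of the 10 markers was 174 and 186 on the cKO arrays and 2532 and 2426 on the WT arrays. All 10 lay below the limit for dim genes on both cKO arrays, and 3 of them lay below it on all 4 arrays. The summed bulge markers were 82863 and 82425 on the cKO arrays and 67174 and 69673 on the WT arrays. That sum is weighted to the brightest genes. Of 15 tested bulge markers, 7 were higher in cKO in both sets, 1 was lower in both and 7 were mixed. The summed suprabasal keratinocyte markers were lowest on the WT set 2 array, at 25057 and 29449 on the cKO arrays and 23219 and 7622 on the WT arrays. Of 5 tested, Lor alone was lower in set 2 in both genotypes, and 0 were higher in both. Lor read 9.32 and 7.34 on the cKO arrays and 9.01 and 5.65 on the WT arrays, as log2 intensity. The part of these markers in the differences of the mitotic genes was not tested.

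The other genes of mitotic control were counted in 6 lists, and no gene of any list passed limma's test after adjustment over all genes. Of 10 tested CDK1 regulators, 7 were lower in cKO in both sets and 1 higher, with a median of -0.32. The difference was -0.70 for Ccnf, which encodes an F-box cyclin (limma adjusted p = 0.264). It was -0.63 for Mastl, the Greatwall kinase that restrains the phosphatase opposing CDK1, at -0.29 within set 1 and -0.98 within set 2. Cks2, a small subunit of CDK complexes, and Pkmyt1, an inhibitory kinase of CDK1, both differed by -0.39. The 1 gene higher in both sets was Cdc25b, another CDC25 phosphatase gene, at 0.36, and it was named after its value was seen.

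Among the partners of Aurora and Polo kinases, 4 of 7 tested genes were lower in both sets and 3 higher, with a median of -0.44. Those lower were Tpx2, which activates Aurora A on spindle microtubules (-0.75, limma adjusted p = 0.181), Plk4, the kinase of centriole duplication (-0.61), and Birc5 and Incenp, subunits of the Aurora B complex (-0.50 and -0.44). Those higher were Plk2, Plk3 and Ajuba, at 0.20, 0.29 and 0.16, and these were named after their values were seen.

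The subunits of the APC itself centred near 0. Of 12 tested subunits, 5 were lower in cKO in both sets, 2 were higher and 5 were mixed, with a median of -0.07. Their values ran from -0.42 for Anapc15 and -0.28 for Anapc11 to 0.24 for Anapc2, the cullin subunit. Cdc23, another subunit, differed by -0.24. By contrast, 9 of 10 tested APC substrates other than the members were lower in both sets, with a median of -0.65. They include the spindle checkpoint kinase gene Bub1 (-1.07) and the mitotic kinesin gene Kif20a (-0.98 within set 1 and -1.02 within set 2). The limma adjusted p of Kif20a, 0.125, was the lowest in these 6 lists. The hyaluronan-mediated motility receptor gene Hmmr differed by -0.82, at -0.48 within set 1 and -1.16 within set 2. Tpx2 belongs to this list too.

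The list of a second APC coactivator, a second E2 enzyme and the APC inhibitors had 5 tested genes, of which 4 were lower in both sets, with a median of -0.42. Mad2l1 and Bub1b, checkpoint proteins that hold CDC20 inactive until chromosomes are attached, differed by -0.67 and -0.54, and Bub3 by -0.42. Fzr1, which encodes the coactivator CDH1, differed by -0.41, at -0.71 within set 1 and -0.11 within set 2. Of 11 tested transcription factor genes of the G2/M programme, 8 were lower in both sets and 1 higher, with a median of -0.26. The MuvB subunit gene Lin9 differed by -0.91 (limma adjusted p = 0.196), Mybl2, which encodes B-MYB, by -0.76, the pocket protein gene Rbl1 by -0.58 and Tfdp1, a partner of E2F factors, by -0.48. These lists are described by counts and medians, and the differences between them were not tested.

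**Figure D3:**
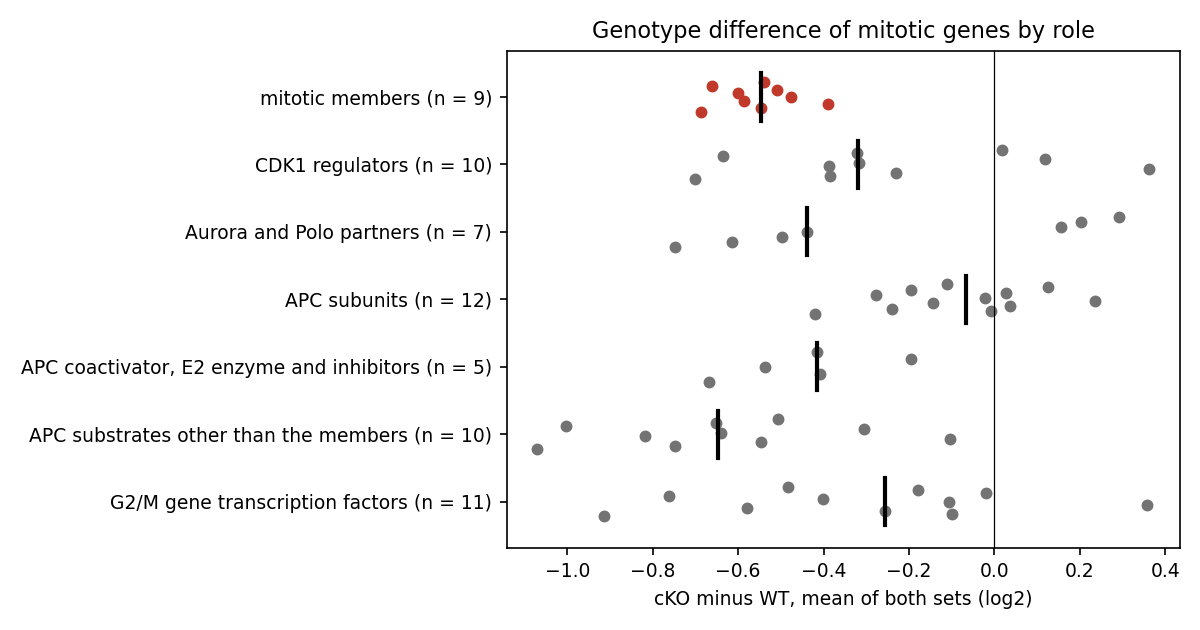
The log2 difference of cKO minus WT (horizontal axis, mean of both sets) is plotted for each tested gene of the 9 mitotic members (red) and of 6 other lists (grey), with a black bar at each list's median. The members' median lies at -0.55, that of APC subunits at -0.07 and that of other APC substrates at -0.65.

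The genes outside the group whose pattern over the 4 arrays was nearest to the members' mean were Cenpt, Kif22, Ncapd2, Fanca, Lama5 and Ica1. Likeness was the Euclidean distance between log2 profiles centred on their own mean. It was 0.05 for Cenpt and 0.08 for Ica1, against 0.07 for Aurka, the member nearest to that mean, and 0.35 for Plk1, the farthest. Cenpt encodes a kinetochore protein, Kif22 a chromosome-arm kinesin, Ncapd2 a condensin subunit, Fanca a DNA repair protein and Lama5 a laminin chain.

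The second comparison set both arrays of set 2, labelled activated, against both of set 1, labelled quiescent. By the probe set that stood for each gene, 0 of 9 members were higher in set 2 in both genotypes, where 19.8% of all tested genes were, and 5 of 9 were lower in both, where 35.8% of all genes were. Among single probe sets 1 of 13 was higher in both, against 24.4% of all probe sets, and 7 of 13 were lower in both, against 31.8%. The 1 higher was the second Ccna2 probe set, at 0.11 in cKO and 0.12 in WT. For no member did both set 2 arrays lie below both set 1 arrays, as they did for 19.5% of all genes. That outcome was fixed in advance by the genotype difference, since both cKO arrays read below both WT arrays for every member. limma called 0 of 8031 genes at an adjusted p under 0.05 and 230 at an unadjusted p under 0.05 (2.86%), with 0 of the 9 members called either way. The median difference of set 2 minus set 1 was -0.13 over the members and -0.05 over all genes.

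The differences of the cyclin genes, Cdk1 and Cdc25c lay near 0, where their signs turned with the scaling or the probe set used, while Plk1 and Aurkb had the lowest values. Cdk1 averaged 10.96 in set 2 and 10.95 in set 1, and its difference of 0.00 had a 95% interval from -0.73 to 0.74. Ccnb2 differed by 0.01 (interval -0.86 to 0.88), Ccna2 by -0.03 (-0.85 to 0.78) and Cdc25c by 0.01 (-0.59 to 0.62). Those intervals are wide because the genotype difference sits inside each set, and they leave room for changes of over 1.5-fold in either direction. Plk1 differed by -0.47 (95% interval -1.33 to 0.40), at -0.29 within cKO and -0.64 within WT. Aurkb differed by -0.45 (-1.16 to 0.26), at -0.38 within cKO and -0.52 within WT.

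Cdc20 and Ube2c lay between these, at -0.31 and -0.22. Within genotypes Cdc20 differed by -0.24 in cKO and -0.37 in WT, and Ube2c by -0.10 in cKO and -0.34 in WT. Aurka differed by -0.13 in both. The members' limma adjusted p was 0.999 or above in this comparison, and with the genotype as a block it ran from 0.554 to 0.999, when 1 gene (0.0125%) was called. The WT set 2 array, which stood apart in Malat1, enters every WT value here, and the cKO set 1 array every cKO value. Their part in these differences was not tested.

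**Figure D4:**
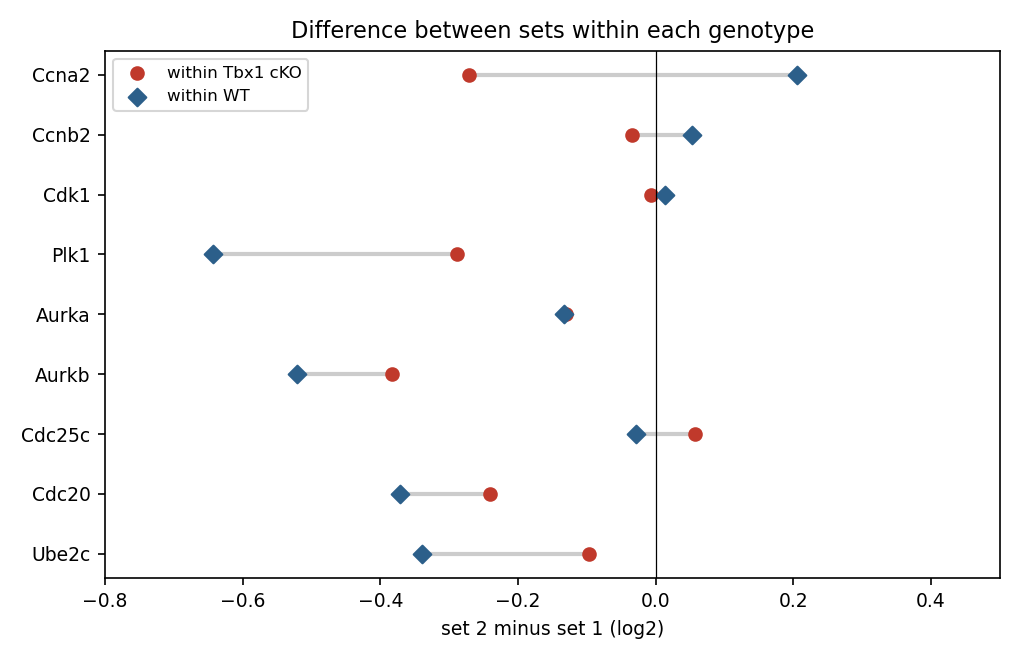
The log2 difference of set 2 minus set 1 (horizontal axis) is plotted for the 9 measured mitotic genes within Tbx1 cKO (red circles) and within WT (blue diamonds), 1 array a side, with a grey line joining both values of a gene. Plk1, Aurka, Aurkb, Cdc20 and Ube2c lie left of 0 in both genotypes, and Cdk1 and Ccnb2 lie near 0.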

How the data were processed

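RNA from sorted hair follicle stem cells was measured on 4 Affymetrix arrays; per the labels' protocols, 2 µg of total RNA went into biotinylated cRNA. The deposited intensity values (22690 probe sets) were made by the authors with RMA, per the submitters' processing notes; its version was not given in the sources used here. The range of the values shows a linear scale, and their log2 was taken. There are no detection calls, and precision is limited by the number of arrays.

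By the platform's annotation, 20380 probe sets had 1 gene symbol, 691 several, 1555 none and 64 were controls. The probe set of highest mean intensity stood for each gene. Genes with a mean below percentile 40 of all probe sets (log2 5.40), Xist and Y-linked genes were left out, which left 8031. All 9 measured members passed at every array's level. Genotypes and sets were compared with limma 3.58.1 in R 4.3.3 (lmFit, eBayes, all 4 arrays, no covariate, two-sided) with Benjamini-Hochberg adjustment over all genes and a threshold of 0.05; the fit was tested on simulated data. An exact two-sided permutation test of 2 against 2 arrays has 0.333 as its smallest p. The sets pair the arrays by title and description, and across genes the same-numbered arrays deviated together from the genotype means (r = 0.192), so the set was a block in an alternative. Beside the members, the rule named up to 4 genes per list with the largest difference and the 6 genes nearest in pattern. The members and lists were chosen with earlier results of these data known. Promoter sequences are RefSeq's (GRCm38.p6), and the 2 motifs were taken from textbook knowledge.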

Additional observations from a re-analysis of the deposited data

Results flagged for a closer look

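In 5 probe sets the difference of set 2 minus set 1 had opposite signs in cKO and WT, with 1 array a side, and these differences between genotypes were not tested. For the brighter Ccna2 probe set it was -0.27 in cKO and 0.20 in WT, which lie -0.48 apart, while the second Ccna2 probe set read 0.11 in cKO and 0.12 in WT. For the Cdc20 probe set without the x suffix it was 0.04 in cKO and -0.29 in WT, 0.32 apart. The other Cdc20 probe sets, which carry that suffix and include the one that stood for the gene, were negative in both genotypes. The opposite signs of Ccnb2 (-0.088 apart), Cdk1 (-0.0209 apart) and Cdc25c (0.0858 apart) were of smaller values. Every measured member had the same sign of cKO minus WT in both sets, which follows from both cKO arrays reading below both WT arrays.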

How the results depend on the processing

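Every member kept a negative difference of cKO minus WT under each alternative, and none was called under any of them. Only alternatives that rescaled the arrays could have changed these signs, since both cKO arrays read below both WT arrays on each probe set. The number of members lower in both sets stayed at 9 of 9 (13 of 13 with each probe set on its own). Their median of -0.55 was -0.58 when probe sets of a gene were averaged and -0.59 with each probe set on its own, and it ran from -0.66 to -0.38 when each array was left out in turn, the weakest without the WT set 1 array. It was -0.69 for cKO set 2 against WT set 1 alone, an alternative chosen after seeing the data. The 7 genes called over the whole array became 0 with the dim filter at percentile 60, 28 with a variance trend and robust fit, 39 at a threshold of 0.10 and 83 with the set as a replicate block, which called 1 gene between sets where the unblocked model called 0. Without the WT set 2 array 2 genes were called and without the cKO set 2 array 16 (range 2 to 16). Between sets, the members' median of -0.13 ran from -0.43 to 0.17 when each array was left out, which leaves the genotypes unbalanced, and the signs of Ccna2, Ccnb2, Cdk1, Cdc25c, Aurka and Ube2c changed under at least 1 alternative, with none called. The number lower in both sets or genotypes has no value when an array is left out. The causes were not tested.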
